A study of Homo sapiens with 6 samples.

Results

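The expressed LINC genes were 164 of the 2123 rows of the count table that carry a LINC symbol followed by a number, in a table of 46427 genes. They were selected on their raw counts in these same samples, as the rows with at least 50 counts in each of at least 3 of the 6 samples. The rule does not ask for a difference between the groups, but a gene that is high in 1 group alone can enter by it. Hs578T is a triple-negative, mesenchymal breast cancer cell line. Cells that stably carry a control shRNA (shCTRL, 3 samples) were compared with cells that carry shRNA #2 against CCN3 (shCCN3, 3 samples), both made with the retroviral vector pSUPER-retro-puro and selected with puromycin. All samples were grown in DMEM with 10% fetal bovine serum and 1% antibiotics. Each group is 1 stable line, so the knockdown and any other difference between the lines cannot be told apart.

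LINC symbols are placeholder names for long intergenic noncoding RNAs, transcripts that lie between coding genes and are not known to encode a protein. Most are capped, spliced and polyadenylated like mRNAs, so a poly(A) library captures them, but they are made at lower levels and in fewer cell types than mRNAs. The better known members act in the nucleus on chromatin and on nearby genes, or in the cytoplasm by binding proteins or microRNAs. In breast cancer, single LINC genes have been tied to invasion, stem-like growth and the response to EGF or TGF-β.

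The 6 libraries held between 56159110 and 68393177 counts, so that 3 counts correspond to 0.0435 to 0.0540 CPM (the count scaled by library size with TMM factors), which covers counting error only. CCN3 itself was 101 ± 2.43 CPM in shCTRL and 47.0 ± 0.469 CPM in shCCN3 cells (SD over 3 samples each), and its groups did not overlap. VIM and SPARC, which mark mesenchymal cells, were high in all samples, and ESR1, EPCAM and CDH1 had at most 10 counts in any sample. PGR, which the line is described as lacking, was listed at 180 to 292 counts. shCCN3 replicate 2 had the smallest library and stood apart from the other shCCN3 samples: its chi-square over genes, divided by the degrees of freedom, was 37.1 and 45.2 against them, where the other pair of that group gave 9.82. The shCTRL samples were uneven too, with 22.1 and 11.8 for replicate 3 against replicates 1 and 2, and 7.02 for the other pair. Genes of chromosome 7 were lower as a whole in shCCN3 cells, with a median log2 fold change of -0.43 over 821 genes tested, and those of chromosome 6 were higher, with a median of 0.34 over 891 genes.

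All 164 members passed the filter on low counts and were among the 17419 genes tested. A gene is called here when edgeR's quasi-likelihood test gave an adjusted p under 0.05 after Benjamini-Hochberg adjustment over all genes tested. Of the members, 66 were called, 32 higher and 34 lower in shCCN3 cells, and 98 were not. That was 40.2% of them, beside a background of 33.4% over all genes tested (16.2% higher and 17.3% lower). Among all genes that meet the same limit of 50 counts in at least 3 samples, 37.3% were called, close to the members' share. The median level of those genes was 24.0 CPM and that of the members 2.46 CPM, so the limit did not match their levels. Without shCCN3 replicate 2, which stood apart, 69 members were called, 61 of them among the 66, and 7229 genes in all. The values of the 2 groups did not overlap for 85 members (51.8%), beside 46.3% of all genes tested and 49.9% of those at the same count limit. For the 148 members that reach the limit in samples of both groups, it was 69 (46.6%). The median log2 fold change of the members was -0.05, beside 0.01 over all genes, and 72 members had a positive and 92 a negative value.

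A called difference of at least 2-fold was found for 26 members (15.9%), 17 higher and 9 lower, beside 8.1% of all genes tested and 6.48% of the genes at the same count limit. The median absolute log2 fold change was 0.35 for the members and 0.24 over all genes, and the median standard error was 0.164 and 0.106. These shares followed the count limit. For the 113 members that reach 50 counts in all 6 samples, 40 (35.4%) were called and 3 (2.65%) by at least 2-fold, beside 36.6% and 4.19% of all genes that do so. For the 51 members short of 50 counts in some samples, 26 (51.0%) were called and 23 (45.1%) by at least 2-fold, beside 46.8% and 36.8% of the 996 genes in the same position. Of these 51, 35 reached it in samples of both groups, and 10 of the 35 (28.6%) were called. Another 10 reached the limit in the shCCN3 samples and in no shCTRL sample, and 6 in the shCTRL samples and in no shCCN3 sample. Those 16 had to differ between the groups because of how they entered, and all 16 were called by at least 2-fold, so their values are a description and support no count. Of the 148 members that reach the limit in samples of both groups, 50 (33.8%) were called, and 10 (6.76%) by at least 2-fold.

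**Figure D1:**
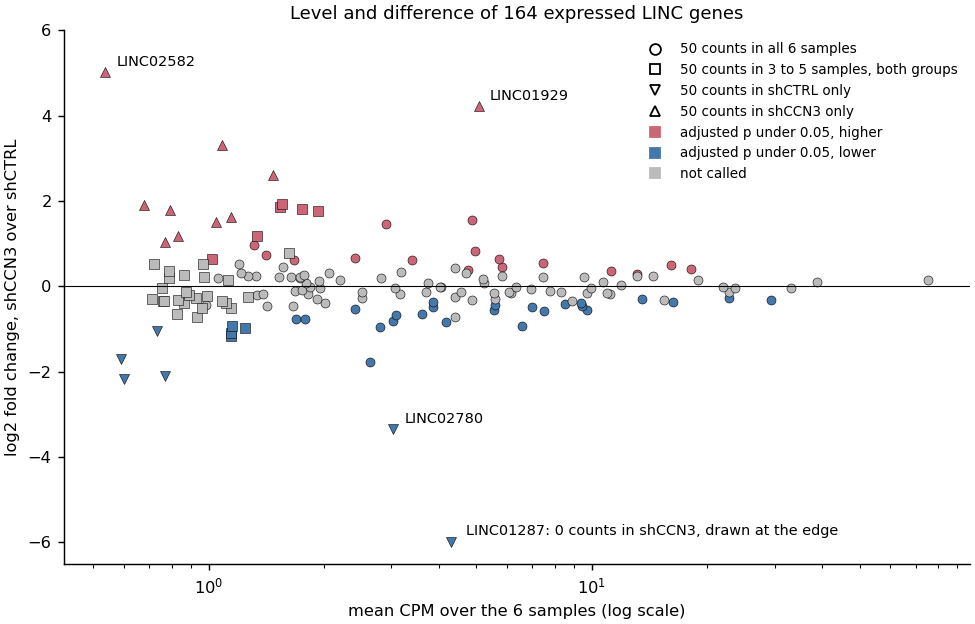
Mean CPM over the 6 samples (log scale, horizontal) and log2 fold change of shCCN3 over shCTRL (vertical) for the 164 expressed LINC genes, with the colour for the call and the symbol for the samples in which 50 counts were reached. Differences beyond 2-fold sit mostly at low levels, and LINC01287, with 0 counts in shCCN3, is drawn at the lower edge.

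Just inside the limit were LINC01910, LINC00601 and LINC01303, with 50, 51 and 52 counts in their third-highest sample. Just outside were LINC00513 with 48 counts and LINC01140 and LINC01358 with 49 counts. Of the 1959 LINC rows below the limit, 1406 had no count in any of the 6 samples, 380 had counts but did not pass the filter, and 173 were tested. Of these 173, 29 (16.8%) were called, at a median level of 0.279 CPM.

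The members were low in level, and their summed level was alike in both groups. Their mean CPM over the 6 samples ranged from 0.538 to 75.6 with a median of 2.46, where that of the 13382 coding genes tested was 26.1. Per kilobase of exon, the median was 1.13 CPM per kb over the 152 members with an exon length and 4.76 CPM per kb over 13330 coding genes. Summed over the members, the level was 893, 891 and 904 CPM in the shCTRL samples and 880, 905 and 875 CPM in the shCCN3 samples. The ranges of the groups overlapped, and the members took between 0.0886% and 0.0897% of all counts in each sample.

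Ordered per length, 2 genes stood above the rest. LINC01444 had 53.6 CPM per kb in shCTRL and 59.6 CPM per kb in shCCN3 cells, and LINC00674 had 51.0 and 54.4 CPM per kb. Both overlapped between the groups in their CPM, and neither was called (adjusted p = 0.282 and 0.397, edgeR). Next came LINC01518 with a mean of 11.7 CPM per kb over the groups, LINC00221 with 10.7, LINC00623 with 9.15 and LINC01116 with 9.14, then LINC00958 with 6.32, LINC01605 with 6.14, LINC02088 with 5.80 and LINC00839 with 5.62. Apart from the step between LINC00674 (lowest sample 47.9 CPM per kb) and LINC01518 (highest sample 13.4), the ranges of samples of adjacent genes in this order overlapped. For 14 members, LINC01444 among them, the GENCODE exon length exceeds the RefSeq span, so their place rests on the annotation used. LINC00674 is a transcribed pseudogene in GENCODE, and LINC00623 shares 737 bases at 99.6% identity with LINC00869, so that their reads can be split between copies.

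Among these 10 members of highest level, 5 were called, each by less than 2-fold, beside 33.4% of all genes tested that were called. LINC02088 fell from 4.47, 4.36 and 4.35 CPM in shCTRL to 2.79, 2.97 and 2.63 CPM in shCCN3 cells, which is -0.65 in log2 units (SE 0.116, adjusted p = 0.00221). LINC01605 on chromosome 8 fell by 0.39 on the log2 scale (adjusted p = 0.0116). LINC01116, which lies beside the HOXD cluster, fell from 17.9, 17.9 and 19.3 CPM to 14.0, 15.9 and 12.7 CPM, which is -0.37 in log2 units (adjusted p = 0.0146), and its call was lost when shCCN3 replicate 1 or shCTRL replicate 3 was left out. LINC00958, first described in bladder cancer, rose from 14.8, 16.4 and 15.6 CPM to 21.6, 20.7 and 19.7 CPM, which is 0.41 in log2 units (adjusted p = 0.00325). In each of these 4 genes the groups did not overlap. LINC00839 was called higher by 0.29 in log2 units (adjusted p = 0.0370), a call lost in 5 of the 6 fits that leave out a sample.

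The member with the widest difference was LINC01287 (Gene ID 103724390), a lncRNA gene on the minus strand of chromosome 7 of GRCh38 from 153399919 to 153412234. It had 528, 521 and 657 counts in the shCTRL samples and 0, 0 and 0 counts in the shCCN3 samples. In CPM this was 7.68, 8.29 and 9.79 against 0, so that the level was at least 178-fold lower in shCCN3 cells, with 3 counts per library as the floor. The fitted log2 fold change against a group at 0 is no bound and is not given, and the adjusted p was 9.93e-07. No other member had 0 counts in a whole group. Its nearest tested coding gene, ACTR3B, which encodes an actin-related protein, lies 544541 bases away and fell by 1.26 on the log2 scale (adjusted p = 3.27e-05).

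LINC02780 followed, a gene of the plus strand at chr1:3976090-4012704. Its level was 5.39, 5.33 and 5.87 CPM in shCTRL and 0.551, 0.468 and 0.610 CPM in shCCN3 cells, which is -3.34 in log2 units (SE 0.154, adjusted p = 8.03e-07) or 10.1-fold lower. LINC01060, on chromosome 4 from 188455578 to 188601908, had 4.31, 3.84 and 4.08 CPM in shCTRL and 1.20, 1.42 and 0.985 CPM in shCCN3 cells, which is -1.76 in log2 units (SE 0.165, adjusted p = 5.02e-05). LINC01060 was the only member called lower by at least 2-fold that reached 50 counts in all 6 samples.

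The other 7 of the 10 largest falls stayed under 2 CPM in every sample. LINC02827 was 0.983 ± 0.111 CPM in shCTRL and 0.220 ± 0.0545 CPM in shCCN3 cells (SD over 3 samples each), which is -2.16 in log2 units (adjusted p = 0.000395). LINC00173, known from granulocyte development, was 1.00, 1.19 and 1.52 CPM in shCTRL and 0.145, 0.594 and 0.156 CPM in shCCN3 cells. The difference was -2.09 in log2 units (SE 0.478, adjusted p = 0.00849), and shCCN3 replicate 2 lay highest of its group. LINC01816, LINC02606, LINC02802, LINC02019 and LINC02202 had log2 fold changes of -1.71, -1.16, -1.09, -1.05 and -0.96. LINC01816 had 0.757, 0.891 and 1.07 CPM in shCTRL against 0.276, 0.306 and 0.250 CPM in shCCN3. LINC02606 had 1.44, 1.48 and 1.83 CPM in shCTRL against 0.638, 0.702 and 0.782 CPM in shCCN3. In both genes the shCCN3 samples lay close together. LINC02802 had 1.66, 1.45 and 1.56 CPM in shCTRL against 0.711, 0.666 and 0.813 CPM in shCCN3. LINC02019 had 1.00, 1.00 and 0.954 CPM in shCTRL against 0.305, 0.648 and 0.485 CPM in shCCN3. LINC02202 had 1.63, 1.53 and 1.77 CPM in shCTRL against 0.943, 0.828 and 0.750 CPM in shCCN3. Each of these 5 was lower in 3 of 3 shCCN3 samples than in every shCTRL sample. The call of LINC02019 was lost in 3 of the 6 fits that leave out a sample.

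On the other side, LINC01929 rose most among the members with counts in every sample. It lies on the minus strand of chromosome 18 from 55105904 to 55124306, and had 34, 29 and 39 counts in shCTRL and 631, 502 and 688 counts in shCCN3 samples. In CPM this was 0.495, 0.462 and 0.581 against 9.16, 9.03 and 10.8, which is 4.23 in log2 units (SE 0.148, adjusted p = 1.45e-07) or 18.7-fold higher. All 3 shCCN3 samples lay far above all shCTRL samples, with a narrow spread in both groups. LINC02582, on the plus strand of the same chromosome from 73324941 to 73349889, had 0, 0 and 6 counts in shCTRL and 75, 53 and 70 counts in shCCN3 samples. Its fitted log2 fold change of 5.03 (adjusted p = 0.000466) rests on the 6 counts of 1 shCTRL sample.

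LINC02806 on chromosome 1 was 0.262, 0.159 and 0.164 CPM in shCTRL and 2.10, 1.84 and 1.99 CPM in shCCN3 cells, which is 3.32 in log2 units (SE 0.251, adjusted p = 1.36e-05). LINC01151 on chromosome 8 was 0.509, 0.398 and 0.328 CPM in shCTRL and 2.63, 2.68 and 2.31 CPM in shCCN3 cells, which is 2.62 in log2 units (SE 0.211, adjusted p = 2.00e-05). These 4 genes reached 50 counts in the shCCN3 samples and in no shCTRL sample.

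LINC02615, LINC02008, LINC01133, LINC01836, LINC00842 and LINC02593 completed the 10 largest rises, with log2 fold changes between 1.77 and 1.94. LINC01133, a lncRNA known to bind the splicing factor SRSF6, was 0.888, 0.414 and 0.671 CPM in shCTRL and 1.92, 2.86 and 2.47 CPM in shCCN3 cells (log2 fold change 1.87, standard error 0.279, adjusted p = 0.000836). LINC02615 was 0.640 ± 0.172 CPM in shCTRL and 2.47 ± 0.461 CPM in shCCN3 cells (SD over 3 samples each). Both were detected in every sample. LINC02008 had 0.378, 0.239 and 0.238 CPM in shCTRL against 1.33, 1.01 and 0.860 CPM in shCCN3. LINC01836 had 0.859, 1.00 and 0.462 CPM in shCTRL against 2.41, 3.47 and 2.31 CPM in shCCN3. In LINC01836, shCTRL replicate 3 was lowest and shCCN3 replicate 2 highest. LINC00842 had 0.306, 0.350 and 0.402 CPM in shCTRL against 1.10, 1.04 and 1.55 CPM in shCCN3. LINC02593 had 1.22, 0.732 and 0.671 CPM in shCTRL against 3.06, 3.29 and 2.63 CPM in shCCN3. Every shCCN3 sample was above every shCTRL sample in these 6 genes. LINC02008 and LINC00842 reached the limit in shCCN3 samples alone, as did LINC02703, LINC01638, LINC02614 and LINC01608, whose log2 fold changes lay between 1.05 and 1.63. LINC02703 had 0.509, 0.748 and 0.417 CPM in shCTRL against 1.71, 1.60 and 1.86 CPM in shCCN3. LINC01638, which has been tied to c-Myc stability in triple-negative breast cancer cells, had 41, 30 and 37 counts in shCTRL and 96, 103 and 89 counts in shCCN3 samples. The call of LINC01608 was lost in 4 of the 6 fits that leave out a sample.

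**Figure D2:**
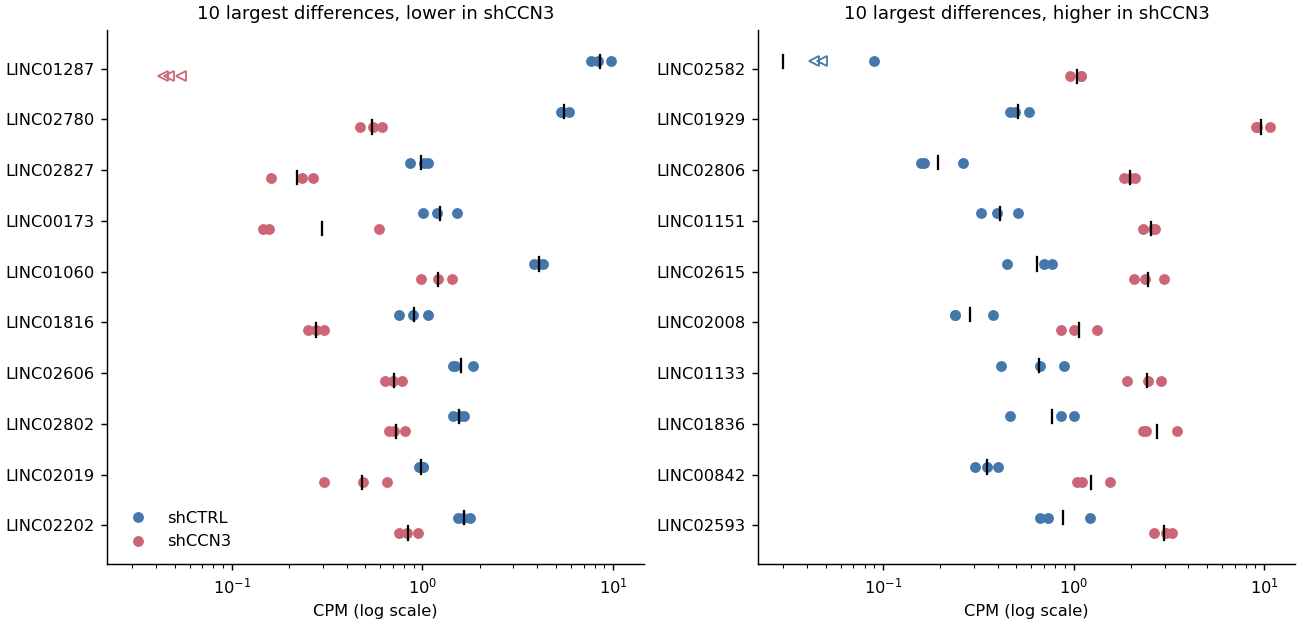
CPM (log scale) in each of the 3 shCTRL (blue) and 3 shCCN3 (red) samples for the 10 LINC genes with the largest called differences in each direction, with a black bar at each group mean above 0. Open triangles stand for 0 counts and are drawn at the level of 3 counts in that library, and in none of the 20 genes do the groups overlap.

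Beyond these, 34 members were called that the naming rule does not cover, 16 higher and 18 lower, with no overlap of the groups in any of them. Those named here were chosen after their values were seen. The rises ran from 0.37 to 1.55 on the log2 scale. The highest were in LINC00517, which had 2.58, 2.48 and 2.38 CPM in shCTRL against 7.01, 7.56 and 7.22 CPM in shCCN3 (adjusted p = 7.88e-06), LINC00942 with 1.48, 1.94 and 1.22 CPM in shCTRL against 4.85, 3.58 and 4.38 CPM in shCCN3, and LINC01194 with 0.684, 0.955 and 0.805 CPM in shCTRL against 2.15, 2.02 and 1.41 CPM in shCCN3. Each of these 3 was more than 2-fold higher on average in shCCN3 cells. The falls ran from -0.94 to -0.28. LINC01119 had 7.28, 9.11 and 9.46 CPM in shCTRL against 4.15, 4.66 and 4.72 CPM in shCCN3 (adjusted p = 0.000454), and LINC02381 had 5.21, 5.52 and 5.29 CPM in shCTRL against 2.39, 3.80 and 2.80 CPM in shCCN3. None of these falls reached 2-fold.

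For single genes an exact permutation test of 3 samples against 3 cannot give a two-sided p below 0.1, and all 85 members without overlap gave that value. In the 13 other fits, 48 of the 66 calls, 24 higher and 24 lower, were lost in none that tested the gene. LINC01287 and LINC02582 are among the 48 but were not tested in the fit that asks for at least 10 counts in every sample. Of 30 LINC genes with a record in breast cancer or in signaling studies, 17 were members, and 9 of these were called, 4 higher (LINC01133, LINC01638, LINC00958 and LINC00839) and 5 lower (LINC01287, LINC01089, LINC00467, LINC01116 and LINC00941). The background was 33.4% of all genes tested and 37.3% at the same count limit, and LINC01287 and LINC01638 entered through 1 group only. LINC01089, which is known as a transcript that EGF represses in mammary cells, was 7.77, 7.75 and 8.90 CPM in shCTRL and 5.41, 6.41 and 5.69 CPM in shCCN3 cells. The difference was -0.48 in log2 units (SE 0.108, adjusted p = 0.00778), the groups did not overlap, and the gene overlaps SETD1B on the other strand and has a stretch of 900 bases that is identical in the record AC084018.2. LINC00941, tied to TGF-β signaling in colorectal cancer, fell by 0.29 on the log2 scale (adjusted p = 0.0326), a call lost in 5 of the 6 fits that leave out a sample. LINC00467, which encodes a mitochondrial micropeptide, had overlapping groups and a difference of -0.44 in log2 units (adjusted p = 0.0495), a call lost in 4 of the 6 fits that leave out a sample.

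The other 8 genes with such a record were not called. LINC00963, which has been linked to EGFR signaling in prostate cancer, was 9.77, 10.0 and 10.4 CPM in shCTRL and 9.78, 10.0 and 9.76 CPM in shCCN3 cells, which is -0.03 in log2 units (SE 0.079, adjusted p = 0.801). LINC00472, described as a suppressor in breast cancer, had a difference of 0.52 in log2 units (SE 0.255, adjusted p = 0.156). LINC00460, LINC00662, LINC00665, LINC00205, LINC00342 and LINC00899 had log2 fold changes between -0.34 and 0.23, with adjusted p-values from 0.0977 to 0.732.

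Promoter sequence was read from RefSeq for 123 of the 164 members, as 250 bases before and 50 bases after the annotated start on GRCh38.p14. The windows of the 4 members with the largest falls and the 4 with the largest rises among the called members that have one are printed 5′ to 3′, to show what these starts look like. The letters in capitals mark a match, on either strand, to 1 of the motifs searched, which were the AP-1 motif TGACTCA, the CRE motif TGACGTCA, the E-box CACGTG, the M-box CATGTG, the TCF/LEF motif CTTTGA, the TATA motif TATAAA and the interferon-stimulated response element (ISRE). Of the lower genes, the window of LINC01287 is chr7:153412185-153412484 on the minus strand, of LINC02827 chr12:3300113-3300412 on the plus strand, of LINC00173 chr12:116533172-116533471 on the plus strand and of LINC01060 chr4:188455328-188455627 on the plus strand. Of the higher genes, that of LINC01929 is chr18:55124257-55124556 on the minus strand, of LINC02806 chr1:148279018-148279317 on the plus strand, of LINC02615 chr4:128427766-128428065 on the plus strand and of LINC01133 chr1:159960974-159961273 on the plus strand.
LINC01287: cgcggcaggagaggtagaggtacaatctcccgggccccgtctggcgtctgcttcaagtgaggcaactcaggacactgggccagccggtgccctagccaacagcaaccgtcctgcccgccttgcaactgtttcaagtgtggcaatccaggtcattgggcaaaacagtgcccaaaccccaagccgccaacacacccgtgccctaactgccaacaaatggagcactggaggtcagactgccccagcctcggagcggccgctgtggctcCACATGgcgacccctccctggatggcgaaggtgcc
LINC02827: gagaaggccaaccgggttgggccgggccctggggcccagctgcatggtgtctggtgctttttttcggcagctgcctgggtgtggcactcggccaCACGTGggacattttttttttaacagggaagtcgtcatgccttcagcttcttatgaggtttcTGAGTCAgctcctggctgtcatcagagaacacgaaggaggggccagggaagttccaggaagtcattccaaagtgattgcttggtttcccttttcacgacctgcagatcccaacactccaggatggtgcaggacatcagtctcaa
LINC00173: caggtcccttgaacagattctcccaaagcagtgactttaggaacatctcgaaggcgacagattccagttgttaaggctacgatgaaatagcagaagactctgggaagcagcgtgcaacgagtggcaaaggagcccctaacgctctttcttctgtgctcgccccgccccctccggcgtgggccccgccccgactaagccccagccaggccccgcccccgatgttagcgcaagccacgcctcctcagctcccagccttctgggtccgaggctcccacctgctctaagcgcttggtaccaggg
LINC01060: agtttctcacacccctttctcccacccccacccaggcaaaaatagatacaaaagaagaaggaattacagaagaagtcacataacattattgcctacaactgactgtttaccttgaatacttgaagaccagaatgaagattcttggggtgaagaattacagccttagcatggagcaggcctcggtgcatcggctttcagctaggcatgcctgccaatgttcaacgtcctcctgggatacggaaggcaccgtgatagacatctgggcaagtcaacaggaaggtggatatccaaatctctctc
LINC01929: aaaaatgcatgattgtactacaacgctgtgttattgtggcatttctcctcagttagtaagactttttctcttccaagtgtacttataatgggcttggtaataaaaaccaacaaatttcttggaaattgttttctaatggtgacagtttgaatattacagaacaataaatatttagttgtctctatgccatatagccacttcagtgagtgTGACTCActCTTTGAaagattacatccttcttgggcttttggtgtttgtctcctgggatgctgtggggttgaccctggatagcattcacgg
LINC02806: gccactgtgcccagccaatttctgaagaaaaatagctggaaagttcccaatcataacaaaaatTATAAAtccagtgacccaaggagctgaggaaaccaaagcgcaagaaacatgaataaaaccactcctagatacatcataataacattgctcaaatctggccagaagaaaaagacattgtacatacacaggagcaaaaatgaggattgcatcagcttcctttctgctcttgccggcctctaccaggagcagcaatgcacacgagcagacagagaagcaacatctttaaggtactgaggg
LINC02615: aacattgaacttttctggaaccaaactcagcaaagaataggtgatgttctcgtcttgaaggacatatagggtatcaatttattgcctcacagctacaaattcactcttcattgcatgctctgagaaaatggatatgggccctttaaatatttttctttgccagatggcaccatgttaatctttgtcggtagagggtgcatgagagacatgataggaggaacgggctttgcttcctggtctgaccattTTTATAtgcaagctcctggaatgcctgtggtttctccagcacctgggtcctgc
LINC01133: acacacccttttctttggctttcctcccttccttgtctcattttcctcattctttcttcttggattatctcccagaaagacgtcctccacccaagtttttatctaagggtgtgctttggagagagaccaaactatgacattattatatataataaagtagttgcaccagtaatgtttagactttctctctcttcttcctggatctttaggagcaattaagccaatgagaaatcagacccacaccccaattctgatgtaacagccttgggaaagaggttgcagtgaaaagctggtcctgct

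Counted from the first base of the window, AP-1 letters start at base 210 in LINC01929, which was higher, and at base 157, on the other strand, in LINC02827, which was lower in shCCN3 cells. The windows of LINC00173, LINC01060 and LINC01133 hold none of the motifs. AP-1 letters were found in 15 of the 123 windows (12.2%), beside 4.90% of all 27305 promoters in the table, 3.41% of those of genes tested and 8.16% of those of all LINC rows. LINC01001, LINC01002 and LINC01061 are 3 of the 15, and their windows are near-identical copies of 1 repeated sequence, so they are not separate occurrences. By direction, the share was 3 of 22 higher, 2 of 23 lower and 10 of 78 uncalled members. For the other motifs, as for AP-1, the background differed between sets of promoters. M-box letters were in 13.8% of the members' windows, beside 11.3% of all promoters, 7.31% of those of genes tested and 18.2% of those of LINC rows. The TATA motif was in 11.4%, beside 12.0%, 6.37% and 16.6% in the same order. TCF/LEF letters were in 8.13%, beside 13.2%, 9.26% and 15.4%. E-box letters were in 7.32%, beside 7.41%, 9.90% and 5.17%. For CRE the shares were 2.44%, beside 1.97%, 3.01% and 0.952%, and for ISRE 4.07%, beside 3.66%, 3.05% and 4.29%. The M-box windows include those of LINC01001, LINC01002 and LINC01061. They also include those of LINC01106 and LINC01123, which are near-identical to each other, so neither set holds separate occurrences. A match describes letters only and is no evidence of binding. The median GC content was 60.3% in the members' windows and 65.0% in those of the coding genes tested.

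Most of the 12 members on chromosome 7 had values below 0, as the chromosome had as a whole. Of the 12, 10 had a negative log2 fold change, 5 were called lower and none higher, with a median of -0.35 where that of all genes tested there was -0.43. LINC00174, LINC01004, LINC00265 and LINC02476 fell by 0.82, 0.77, 0.58 and 0.53 on the log2 scale, which was 0.39, 0.34, 0.15 and 0.10 below the median of their chromosome. The call of LINC01004 was lost in 3 of the 6 fits that leave out a sample, and that of LINC02476 without shCCN3 replicate 1. LINC01287 on the same chromosome, with 0 counts in shCCN3 cells, stood far below it. Of the 4 members on chromosome 6, LINC01615 and LINC00242 were called higher, by 0.64 and 0.65, and the call of LINC00242 was lost in 5 of the 6 fits that leave out a sample and under DESeq2. Without the members on chromosomes 6, 7 and 20, 58 of 145 members (40.0%) were called, 29 in each direction. Over all chromosomes it was 40.2% of the members and 33.4% of all genes tested. The 145 still hold members that entered through 1 group only, such as LINC01929. The share of all genes called on each chromosome is not given here. These are not all the chromosomes with a shift. The median was -0.12 on chromosome 20, and chromosomes 21 (0.23) and 1 (-0.13) were kept. Whether part of a member's difference follows its chromosome was not tested.

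LINC genes are often studied together with the coding gene beside them. Of the members, 163 had a position, and 117 had a tested coding gene within 100 kb. The nearest coding gene, or neighbour, is here the nearest one that was tested, so an untested coding gene can lie closer. Of these 117, 47 were called, and in 22 pairs both the LINC gene and its nearest coding gene were called, 18 in the same direction and 4 in opposite directions. The 18 pairs were 15.4% of the 117, beside 13.8% of 12196 coding genes and their own nearest coding gene, so the share was close to that background. It was 38.3% of the called LINC genes and 37.7% of the called coding genes. Among members that reach 50 counts in all 6 samples, it was 9 of 83 pairs (10.8%). The count of 18 fell to 11 without shCCN3 replicate 1. Spearman's rho between the log2 fold changes of the 117 pairs was 0.33, given as a description, since pairs share libraries and in part their regions.

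Several pairs moved together by large amounts. Beside LINC01929, TCF4, a basic helix-loop-helix factor 97879 bases away, rose from 1.69 ± 0.0906 CPM to 4.20 ± 0.896 CPM (SD over 3 samples each), which is 1.32 in log2 units (adjusted p = 0.000489). Beside LINC01151, ZHX2, a zinc-finger homeobox repressor 86273 bases away, rose from 13.0 ± 0.425 to 25.6 ± 0.920 CPM, which is 0.98 in log2 units (adjusted p = 1.12e-05). Beside LINC02593, SAMD11 at 4231 bases rose from 4.99 ± 0.201 to 13.1 ± 1.52 CPM, a log2 fold change of 1.40. LINC01128, whose nearest coding gene is also SAMD11, at 64477 bases, fell by 0.28 on the log2 scale (adjusted p = 0.0295), so these 2 LINC genes went opposite ways. The call of LINC01128 was lost in 2 of the 6 fits that leave out a sample.

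LINC00842 and the annexin gene ANXA8L1, 6584 bases apart on chromosome 10, both rose, with log2 fold changes of 1.80 and 4.37. ANXA8L1 reached 6.21 ± 0.913 CPM in shCCN3 cells. LINC00842 shares a stretch of 305 bases at 97.4% identity with ANXA8, so some reads of the annexin genes and of LINC00842 may be confused there. Among the genes that fell, LINC02606 lies 55562 bases from SPSB1, which encodes a SOCS-box adaptor and fell by 0.60 on the log2 scale (adjusted p = 0.000210). LINC02202 starts back to back with EBF1, a transcription factor of the early B-cell factor family, with 567 bases between the genes. EBF1 fell from 22.5 ± 0.897 to 16.1 ± 0.849 CPM, which is -0.49 in log2 units (adjusted p = 0.000964), beside -0.96 for LINC02202. LINC02084, outside the naming rule and chosen after its values were seen, lies 1553 bases from the T-box gene EOMES. It had 3.89, 3.68 and 3.50 CPM in shCTRL and 1.73, 2.23 and 1.81 CPM in shCCN3 cells, and the log2 fold changes of the pair were -0.94 and -0.79.

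Other members with a large difference had a neighbour that fell or rose little or was not called. C1orf174, 75818 bases from LINC02780, fell by 0.20 on the log2 scale (adjusted p = 0.0487), as did TSPAN9, 13804 bases from LINC02827 (adjusted p = 0.0389). PTBP1, a splicing regulator 11749 bases from LINC01836, rose by 0.27 (adjusted p = 0.00671). C2orf42, the nearest tested coding gene of LINC01816, had a difference of -0.01 in log2 units (adjusted p = 0.916). For LINC01133 that gene was TAGLN2, with 0.19 (adjusted p = 0.0941), and for LINC02019 it was DOCK3, with -0.25 (adjusted p = 0.503). MAP1LC3B2, that of LINC00173, had 0.85 where LINC00173 had -2.09, and was not called (adjusted p = 0.0658). A test of whether a LINC gene and its neighbour differ from each other was not run.

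Divergent members numbered 15, meaning genes that start on the opposite strand within 1 kb of a coding gene's start, and 3 of these 15 were called (20%), beside 33.4% of all genes tested. They were LINC02202 beside EBF1, LINC01184 beside SLC12A2 with a difference of -0.33 in log2 units (adjusted p = 0.00525), and LINC01547 beside FAM207A with 0.38 (adjusted p = 0.0498). The call of LINC01547 was lost in 4 of the 6 fits that leave out a sample and under DESeq2. None of the 15 differed by 2-fold or more with a call. Another name is carried by 13 members in the current RefSeq table, such as ICMT-DT for LINC00337 and ZNF407-AS1 for LINC00909, and LINC02798 is now listed as a coding gene. The records of 64 members overlap another gene, 56 of them on the other strand, and 38 of the 152 with GENCODE transcripts share at least 300 bases at 97% identity or more with a transcript of another record. Of these 38, 14 (36.8%) were called, and of the 126 others, 52 (41.3%). The 126 include the 12 members without GENCODE transcripts, which were not searched. Of the 79 members for which neither an overlap nor such a stretch was found, 31 (39.2%) were called, and members not searched can be among them.

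The variation within a group was wide for a few members. LINC00294 ranged from 0.224 to 2.12 CPM in shCTRL and from 0.576 to 3.51 CPM in shCCN3 cells, and LINC00909 had 4.64, 2.10 and 5.29 CPM in shCTRL against 5.18, 4.81 and 2.03 CPM in shCCN3 cells. Neither was called, and for both the samples of a group differed more than the group means. Both were named after their values were seen.

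Other classes of genes are given beside the 148 members that reach the limit in samples of both groups (33.8% called). Those 148 leave out the members that entered through 1 group only, all of them called, and the other classes had no such filter. Of 446 antisense RNAs tested 99 (22.2%) were called, of 52 small nucleolar and microRNA host genes 16 (30.8%), and of 13382 coding genes 5024 (37.5%). These classes differ in level, with medians of 1.01, 7.34 and 26.1 CPM, so the shares are a description. Of a list of 63 long noncoding RNAs that have names of their own, 49 were tested and 17 called, 11 higher and 6 lower. The imprinted RNA H19 rose from 0.0706 ± 0.0621 to 1.68 ± 0.325 CPM and MEG3, imprinted too, from 11.7 ± 2.46 to 54.5 ± 5.53 CPM, or by 4.54 and 2.22 on the log2 scale. H19 had 0.116, 0.0955 and 0 CPM in the shCTRL samples, so its fold change rests on few counts. NKILA and CYTOR rose by 1.28 and 1.26. LINC-PINT, MIR31HG and MIR100HG fell by 1.16, 0.69 and 0.67 on the log2 scale. MALAT1 and NEAT1, which stay in the nucleus, had log2 fold changes of 0.15 and -0.05 and were not called (adjusted p = 0.210 and 0.670).

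**Figure D3:**
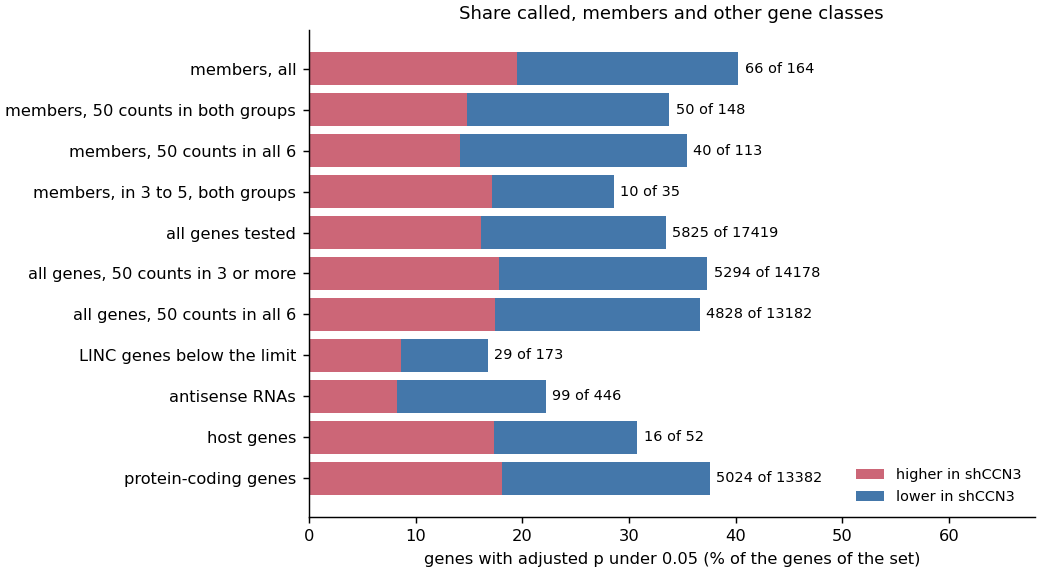
Percent of genes with an adjusted p under 0.05, split into higher (red) and lower (blue) in shCCN3 cells, for the LINC members and for other sets of genes, with the count called beside each bar. The 164 members sit at 40.2%, the 148 in both groups at 33.8% and all genes tested at 33.4%, and the LINC genes below the limit at 16.8%.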

How the data were processed

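Poly(A) RNA of 3 shCTRL and 3 shCCN3 #2 Hs578T samples was sequenced by the authors with a stranded mRNA kit. They deposited raw read counts for 46427 genes, without normalization, and every column of the table was used. The submitters' processing notes name bcl2fastq 2.20.0, Trimmomatic, HISAT2 2.1.0, StringTie and DESeq2 on GRCh38. The annotation and the use of strand in counting are not given in the sources used here, so overlapping and antisense genes and near-identical copies are uncertain. Nothing in the labels says what separates the replicates beyond the series' own wording of independent biological replicates, and p-values measure the spread between these samples.

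Counts were tested with edgeR 4.0.16 in R 4.3.3 (TMM, filterByExpr by group, glmQLFit and glmQLFTest without a block, Benjamini-Hochberg over 17419 genes). Alternatives were other scalings, other filters, DESeq2 1.42.0, a replicate block, other count limits, and each sample left out in turn. Scripts were tested on simulated data. Names, positions and promoters came from RefSeq (GRCh38.p14, by Gene ID, 163 of 164 members), exon lengths from GENCODE release 29, and copies from BLAST+ 2.17.0. The members and lists were chosen with earlier results of these data known. Genes named are the 10 largest called differences without overlap in each direction, the 10 highest members per length, a list of LINC genes with a record in breast cancer or signaling, the genes at the limit and in 1 group only, and neighbours of the first set. Other members named, such as those on chromosomes 6 and 7, in divergent pairs or under another name in RefSeq, were chosen after their values were seen.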

Additional observations from a re-analysis of the deposited data

How the results depend on the processing

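The number of members called was 57 to 66 under other scalings, filters and DESeq2 (61 calls, 60 of them shared), and 51 to 69 when each sample was left out. Over all genes it was 4181 to 7229 when each sample was left out, the highest without shCCN3 replicate 2. With 50 counts required in all 6 samples 40 of 113 members were called, and with 200 counts in at least 3 samples 35 of 78, with a median log2 fold change of -0.13. Both limits leave fewer genes. The members' median lay between -0.098 and -0.031 when each sample was left out, and that without shCCN3 replicate 2 moved by more than the spread between replicates. Pairs called in the same direction numbered 11 to 24 when each sample was left out, 6 within 10 kb and 24 within 1000 kb. For CCN3 the difference in log2 units lay between -1.12 and -1.09. Of 622 values for the named members under the alternatives, 586 kept their direction and side of the threshold, 32 lost the call and 2 gained one. The direction turned in 2 values of LINC00662, which was not called in any fit, with 0.08 in log2 units against -0.034 without shCCN3 replicate 3 and -0.019 without shCTRL replicate 2. The changed calls were those of LINC00342, LINC00467, LINC00472, LINC00839, LINC00941, LINC01116, LINC01608 and LINC02019, all with small differences or low counts. Same-numbered samples did not deviate together (correlations of 0.15, -0.07 and -0.26 over the genes tested), so the numbers were not taken as pairs, and not every sample correlated best with its own number. With the replicate block, 57 members were called, all shared with the fit without it, and 4887 genes in all. At this depth a member at 50 counts carries wide counting error, and small differences of low members were not detectable.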
